A study of Mus musculus with 8 samples.

Results

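The genes described here are 38 mouse genes of ribosome biogenesis and of the Myc transcription programme, out of 32285 genes counted in every library. They were taken by gene symbol from a given list, which was chosen by a reading of earlier results of these libraries. Which measured values the genes were selected on was not stated, so any contrast below may have entered the choice. Counts of members are therefore given as descriptions, those of the main comparisons beside the share of all genes called in the same fit. Adjusted p-values printed for members take no account of this choice or of the picking of a largest value, and are descriptions too. All 38 had UMIs (unique molecular identifiers, which count captured transcripts) in every one of the 8 libraries, and all passed the filter on low counts in each of the main fits. Gene symbols are as in the files, and gene positions are from GENCODE on GRCm38, which held 99.61% of the gene identifiers in the files.

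The series holds droplet single-cell RNA profiles of colon from male C57BL/6 mice, which were 6 to 12 weeks old, with 2 libraries per group that the study describes as biological replicates. Tissue epithelium came from crypts freed with EDTA. Organoid epithelium was grown in Matrigel in the full medium, which holds surrogate Wnt, CHIR-99021, R-spondin 1 and noggin. Assembloids joined organoids with cultured colon stromal cells in Matrigel, were kept in medium that lacked these 4 factors, and gave both epithelial libraries and stromal libraries of EpCAM-negative cells. The stromal cells were expanded in culture before assembly, and how they were parted from the epithelium for the libraries is not given in the sources used here. Assembloids were dissociated with Liberase TL and then TrypLE, organoids and crypts with TrypLE alone, so that dissociation and group cannot be told apart.

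Kept cells had at least 500 genes and at most 10% mitochondrial UMIs. They numbered 4683 and 4299 in tissue (38.6% and 25.3% of the barcodes), 25116 and 6834 in assembloid epithelium, 4872 and 8034 in organoids and 8078 and 8968 in stroma, with 36902557 to 187583982 UMIs per library. Wherever 2 values are given for a group, they are those of replicates 1 and 2 in this order. Levels are CPM, the UMIs of a gene per 1000000 UMIs of the kept cells, and since they count transcript ends they are compared between samples and not between genes. Summed over cells, a lower level from fewer expressing cells and one from less RNA per cell cannot be told apart. The epithelial marker Epcam had 941 to 2267 CPM in the epithelial libraries against 7.98 and 1.58 CPM in stroma, whose fibroblast marker Col1a1 had 1306 and 1608 CPM. After fibroblast-gated and immune-gated cells were removed, Col1a1 remained at 15.1 and 3.02 CPM in assembloid epithelium. Up to 141 cell barcodes were shared by a pair of libraries.

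A ribosome is built in the nucleolus. RNA polymerase I transcribes the large precursor RNA, small nucleolar ribonucleoproteins (snoRNPs) modify it, and assembly factors of the small subunit (the processome) and of the large subunit fold it, cut it and load ribosomal proteins. Myc, a transcription factor that pairs with Max on E-box sequences, activates many of these genes and also those of polyamine synthesis, such as Odc1 and Srm. In the intestinal crypt, Wnt signalling keeps Myc high in the cells at the base, and ribosome production falls as cells differentiate towards the surface.

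The E-box was searched for as CACGTG, a palindrome that reads the same on both strands, in RefSeq windows from 250 bases before to 50 bases after the start of each gene on GRCm38.p6. Windows were at hand for 31 of the 38 genes, all but Fbl, Rrp12, Bop1, Rrs1, Npm1, Myc and Srm. The motif was in 7 of the 31 (22.58%) and in 8.09% of 27025 genes with a window of this kind, which describes letters and not binding. In the lists of other genes read further below, the share ran from 0% of 8 snoRNP genes to 46.15% of 13 Myc targets outside the ribosome. The 7 stretches follow, cut to at most 30 bases, in the direction of transcription and with the motif in capitals, to show the element by which Myc is known to act. In organoids over tissue, Utp20 and Tsr1 were not called, and the other genes with the motif were called higher.
Nop2, chr6:125131811-125131840, plus strand: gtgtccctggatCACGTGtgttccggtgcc
Utp4, chr8:106893643-106893672, plus strand: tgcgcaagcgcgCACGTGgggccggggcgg
Utp20, chr10:88826765-88826789, minus strand: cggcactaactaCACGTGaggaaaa
Pes1, chr11:3963965-3963994, plus strand: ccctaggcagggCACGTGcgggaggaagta
Mybbp1a, chr11:72441355-72441376, plus strand: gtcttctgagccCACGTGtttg
Tsr1, chr11:74898092-74898121, plus strand: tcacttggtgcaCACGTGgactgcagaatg
Wdr43, chr17:71616220-71616249, plus strand: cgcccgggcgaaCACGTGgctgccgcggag
In Nop2 the motif began 60 bases before the start, and in the other 6 it lay 3 to 41 bases after it.

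The 38 genes together took 0.862% and 0.648% of all UMIs in organoids, 0.270% and 0.257% in assembloid epithelium, 0.165% and 0.162% in tissue epithelium and 0.362% and 0.336% in stroma. The 4 groups did not overlap, with organoids highest and tissue lowest. Between 37.5% (tissue) and 60.5% (assembloid epithelium) of these UMIs came from Npm1 and Ncl, so that these 2 genes weigh heavily in the sum. Cycling-gated cells, which carry UMIs of genes such as Mki67 and Top2a, were 75.1% and 66.9% of the organoid cells with at least 2000 UMIs, 32.8% and 21.3% of those of assembloid epithelium, 10.5% and 8.76% of those of tissue and 31.9% and 20.7% of those of stroma. The summed level of 11 stress-response genes, among them Fos, Jun and Hspa1a, was 3491 and 4091 CPM in tissue, 1779 and 2101 CPM in assembloid epithelium, 660 and 623 CPM in organoids and 2540 and 4783 CPM in stroma. Both shares of cycling-gated cells and summed stress-gene levels stood in order across the 3 epithelial groups. Single stress genes did not all follow the sum. Ier3 had 15.1 and 19.3 CPM in tissue, 284 and 241 CPM in assembloid epithelium and 187 and 174 CPM in organoids. Hspa1a overlapped between tissue and assembloid epithelium. Stroma held a higher share of the 38 genes than assembloid epithelium at a like share of cycling-gated cells and a higher summed stress-gene level. Differentiated classes, gated as given below, differed as well among cells with at least 2000 UMIs. Goblet-gated cells were 21.3% and 20.4% in tissue, 1.08% and 4.12% in assembloid epithelium and 0.189% and 0.130% in organoids. Colonocyte-gated cells were 19.7% and 18.1%, 3.78% and 10.4%, and 0.147% and 0.0433% in the same order. The part of cycling-gated, goblet-gated or colonocyte-gated shares or of stress-gene levels in the differences between groups was not tested.

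**Figure D1:**
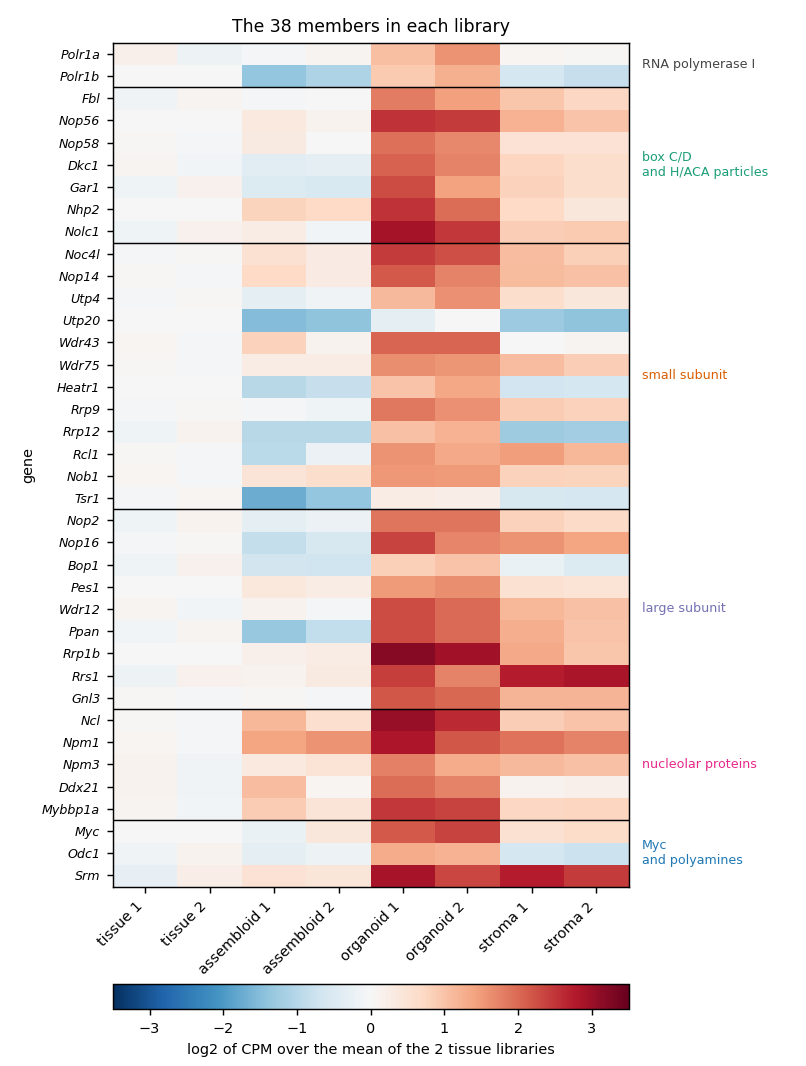
Level of each of the 38 genes (rows, ordered by role) in each of the 8 libraries (columns), as log2 of CPM over the mean CPM of the 2 tissue libraries. Both organoid libraries are above tissue for nearly all genes, while assembloid epithelium holds genes above tissue, such as Npm1 and Ncl, and genes below it, such as Utp20 and Tsr1.

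Organoid epithelium differed from tissue in most of the set. In edgeR's quasi-likelihood test on summed UMIs, 36 of the 38 genes were called higher in organoids at an adjusted p under 0.05, against 24.3% of all genes tested, and the median log2 fold change was 2.13 for the 38 genes and 0.06 for all genes. Organoids against assembloid epithelium gave 36 called higher, against 24.5% of all genes, with a median of 1.74. These comparisons share the organoid libraries. Their fold changes are given as descriptions, with SE and without p-values.

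Among the subunits of RNA polymerase I, Polr1a, the catalytic subunit, had 16.5 and 12.9 CPM in tissue, 14.2 and 15.7 CPM in assembloid epithelium, 30.4 and 43.5 CPM in organoids and 15.4 and 15.2 CPM in stroma. Polr1b, the other subunit of the catalytic core, had 7.17 and 7.15 CPM in tissue, 2.78 and 3.38 CPM in assembloid epithelium, 13.4 and 17.1 CPM in organoids and 4.70 and 4.09 CPM in stroma. Assembloid and tissue libraries therefore overlapped for Polr1a and stood apart, with assembloids lower, for Polr1b. The log2 fold change of organoids over tissue was 1.54 ± 0.20 (SE) for Polr1a and 1.31 ± 0.20 for Polr1b.

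All 7 snoRNP genes were called higher in organoids than in tissue, by a median log2 fold change of 2.19. Nolc1, a chaperone that shuttles snoRNPs to the nucleolus, had 26.1 and 32.1 CPM in tissue, 34.6 and 27.3 CPM in assembloid epithelium, 221 and 163 CPM in organoids and 52.8 and 55.1 CPM in stroma. Nop56, a core protein of the box C/D particles, had 36.5 and 37.2 CPM in tissue, 46.8 and 40.4 CPM in assembloid epithelium, 211 and 201 CPM in organoids and 85.6 and 73.7 CPM in stroma. For both genes organoids were far above the other epithelial groups, with log2 fold changes over tissue of 2.98 ± 0.33 and 2.73 ± 0.25 (SE).

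Fbl, fibrillarin, which methylates ribosomal RNA in these particles, had 56.5 and 65.9 CPM in tissue, 58.8 and 60.4 CPM in assembloid epithelium, 213 and 166 CPM in organoids and 121 and 102 CPM in stroma. Dkc1, dyskerin, the pseudouridine synthase of the box H/ACA particles, had 26.2 and 23.1 CPM in tissue, 19.2 and 19.9 CPM in assembloid epithelium, 104 and 81.4 CPM in organoids and 41.6 and 37.7 CPM in stroma. Its partner Gar1 had 23.3 and 28.7 CPM in tissue, 18.8 and 18.0 CPM in assembloid epithelium, 126 and 68.8 CPM in organoids and 45.9 and 40.2 CPM in stroma. The CPM of Dkc1 and Gar1 in assembloid epithelium were below those of tissue in both libraries. The log2 fold changes were 0.05 ± 0.25 and -0.11 ± 0.36 with TMM and -0.34 ± 0.23 and -0.50 ± 0.29 (SE) with library totals, none of them called. The other snoRNP genes, Nop58 and Nhp2, had log2 fold changes of 2.07 and 2.55 in organoids over tissue.

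The 12 genes of the small subunit had the widest range of fold changes in organoids over tissue. Their median log2 fold change in organoids over tissue was 1.73, and 10 were called higher. Noc4l, a processome component, had 6.83 and 7.29 CPM in tissue, 10.2 and 8.62 CPM in assembloid epithelium, 38.5 and 33.8 CPM in organoids and 14.8 and 12.6 CPM in stroma. Wdr43, which binds the precursor during its transcription, had 48.0 and 43.6 CPM in tissue, 79.4 and 50.01 CPM in assembloid epithelium, 186 and 187 CPM in organoids and 45.8 and 49.1 CPM in stroma. Both cultures were above tissue for these genes, organoids by 2.61 ± 0.26 and 2.27 ± 0.31 (log2, SE).

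Utp20 and Tsr1 were the exceptions. Utp20, a large scaffold protein of the processome, had 41.1 and 40.6 CPM in tissue, 14.4 and 15.5 CPM in assembloid epithelium, 32.7 and 41.6 CPM in organoids and 16.8 and 15.3 CPM in stroma. Tsr1, which guards late small-subunit precursors in the cytoplasm, had 25.2 and 27.8 CPM in tissue, 7.91 and 10.3 CPM in assembloid epithelium, 31.8 and 31.2 CPM in organoids and 18.1 and 17.5 CPM in stroma. Organoids and tissue overlapped for Utp20, with a log2 fold change of 0.08 ± 0.17, and Tsr1 had 0.49 ± 0.20 (SE), which was not called. Assembloid epithelium was lower than tissue for both genes, by a log2 fold change of -1.07 ± 0.17 for Utp20 (edgeR adjusted p = 0.0014) and of -1.17 ± 0.20 for Tsr1 (edgeR adjusted p = 0.0019). These calls held without each library in turn.

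3 more small-subunit genes had a negative fold change in assembloids over tissue. Heatr1, a processome component that also acts in polymerase I transcription, had 12.5 and 12.6 CPM in tissue, 6.41 and 7.18 CPM in assembloid epithelium, 25 and 32.1 CPM in organoids and 7.88 and 8.17 CPM in stroma. Rrp12, needed for export of both subunits, had 6.22 and 7.53 CPM in tissue, 3.48 and 3.499 CPM in assembloid epithelium, 14.1 and 16.0 CPM in organoids and 2.91 and 2.97 CPM in stroma. Rcl1, which acts in the early cuts of the precursor, had 11.6 and 10.9 CPM in tissue, 5.82 and 9.79 CPM in assembloid epithelium, 33.7 and 28.5 CPM in organoids and 31.3 and 25.1 CPM in stroma. In each of these genes tissue lay between assembloid epithelium and organoids. Of the rest, Nop14, Utp4, Wdr75, Rrp9 and Nob1 had log2 fold changes of 1.60 to 2.22 in organoids over tissue.

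All 9 large-subunit genes were called higher in organoids than in tissue, by a median log2 fold change of 2.35. Rrp1b, a nucleolar assembly factor, had 7.02 and 7.02 CPM in tissue, 8.01 and 8.39 CPM in assembloid epithelium, 63.6 and 53.8 CPM in organoids and 17.7 and 13.8 CPM in stroma, and its log2 fold change of 3.32 ± 0.25 (SE) in organoids over tissue was the highest of the 38. Wdr12, of the PeBoW complex that matures the large-subunit RNA, had 13.5 and 11.8 CPM in tissue, 13.8 and 12.4 CPM in assembloid epithelium, 62.0 and 49.9 CPM in organoids and 28.3 and 25.7 CPM in stroma. Its partner Bop1 had 19.1 and 23.7 CPM in tissue, 13.6 and 13.1 CPM in assembloid epithelium, 38.4 and 42.4 CPM in organoids and 18.2 and 15.5 CPM in stroma. In assembloids over tissue the log2 fold changes with TMM were 0.44 ± 0.25 for Wdr12, -0.29 ± 0.20 for Bop1 and 0.71 ± 0.20 (SE) for the third partner Pes1, of which that of Pes1 was called (edgeR adjusted p = 0.016). With library totals in place of TMM, Pes1 was not called (0.32 ± 0.22, edgeR adjusted p = 0.242) and Bop1 was called lower (-0.68 ± 0.23, edgeR adjusted p = 0.029). The call of Pes1 was also lost without assembloid epithelium replicate 1 or either tissue library.

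Nop16, a large-subunit assembly factor and known Myc target, had 14.3 and 15.1 CPM in tissue, 8.33 and 9.94 CPM in assembloid epithelium, 75.5 and 48.4 CPM in organoids and 43.4 and 38.7 CPM in stroma. Ppan, another such factor, had 12.6 and 14.4 CPM in tissue, 5.45 and 7.45 CPM in assembloid epithelium, 65.5 and 53.1 CPM in organoids and 32.9 and 27.0 CPM in stroma. Both were lowest in assembloid epithelium. Rrs1, which brings the 5S particle into the large subunit, had 12.1 and 15.1 CPM in tissue, 14.7 and 17.03 CPM in assembloid epithelium, 72.1 and 45.1 CPM in organoids and 90.5 and 98.8 CPM in stroma, so that here stroma was highest. The others, Nop2 and Gnl3 (nucleostemin), had log2 fold changes of 2.10 and 2.35 in organoids over tissue.

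The 5 nucleolar proteins had the highest median log2 fold change in organoids over tissue, 2.67, and with TMM all were called higher in assembloids over tissue as well. Npm1, nucleophosmin, a histone and ribosome chaperone that fills the outer nucleolus, had 438 and 401 CPM in tissue, 1089 and 1243 CPM in assembloid epithelium, 2971 and 1898 CPM in organoids and 1563 and 1393 CPM in stroma. Ncl, nucleolin, which binds nascent precursor RNA, had 214 and 205 CPM in tissue, 465 and 314 CPM in assembloid epithelium, 1735 and 1288 CPM in organoids and 379 and 416 CPM in stroma. Npm3, a relative that binds Npm1, had 53.5 and 44.8 CPM in tissue, 62.7 and 68.3 CPM in assembloid epithelium, 166 and 121 CPM in organoids and 108 and 101 CPM in stroma. The order tissue, assembloid, organoid held for all 3 genes without overlap. Npm1 has processed copies in the genome and the annotation names 1 pseudogene of Npm3, so reads shared with such copies leave their levels uncertain. The helicase Ddx21 had 76.4 and 63.8 CPM in tissue, 147 and 73.7 CPM in assembloid epithelium, 273 and 232 CPM in organoids and 76.2 and 79.2 CPM in stroma, so that assembloid and tissue libraries overlapped. With library totals in place of TMM, Ddx21 (0.66 ± 0.31) and Npm3 (0.41 ± 0.24, log2 and SE) were not called in assembloids over tissue. Mybbp1a, a nucleolar binding partner of Myb, had a log2 fold change of 2.67 in organoids over tissue.

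**Figure D2:**
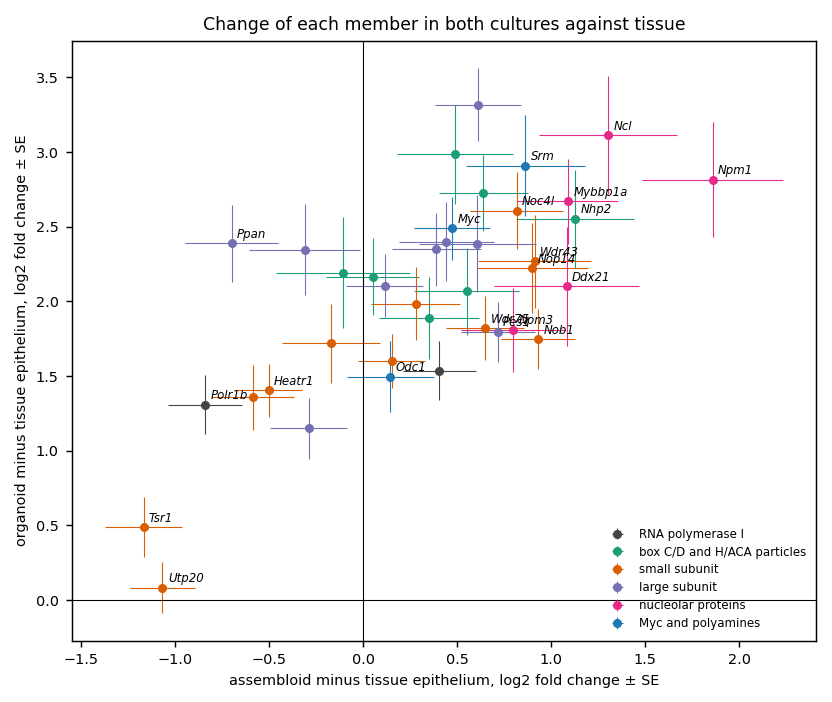
Log2 fold change of assembloid over tissue epithelium (x axis) against that of organoid over tissue epithelium (y axis) for the 38 genes, coloured by role, with bars of 1 SE from the edgeR fit. The axes share the tissue libraries. The points spread from -1.17 (Tsr1) to 1.86 (Npm1) along x and from 0.08 (Utp20) to 3.32 (Rrp1b) along y.

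In assembloid epithelium against tissue the 38 genes went both ways, in shares that stood near those of all genes or below them. Of the 38 genes, 12 were called higher (26.7% of all genes were) and 5 were called lower (23.3% of all genes), with a median log2 fold change of 0.46 against 0.03 for all genes. Higher were Npm1, Ncl, Npm3, Ddx21, Mybbp1a, Nhp2, Pes1, Wdr43, Wdr75, Noc4l, Nop14 and Nob1, led by Npm1 at 1.86 ± 0.37 (SE, edgeR adjusted p = 0.0039). Lower were Tsr1, Utp20, Polr1b (-0.84 ± 0.20), Ppan (-0.70 ± 0.25) and Heatr1 (-0.50 ± 0.18). In all, 10 genes had a negative fold change.

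These counts depended on the scaling. The TMM factors were 1.18 and 1.17 in tissue and 0.826 to 1.09 in the cultures, and with library totals in place of TMM the median of all genes moved to -0.355, and 4 of the 38 genes (Npm1, Ncl, Nhp2 and Mybbp1a) were called higher and 8 lower, against 20.1% and 32.9% of all genes. With size factors from the relative log expression method there were 15 higher and 3 lower, against 27.9% and 22.2% of all genes. Relative to the median of all genes, the 38 genes lay 0.43 higher with TMM and 0.42 higher with library totals. The call count also rested on single libraries, at 6 without assembloid epithelium replicate 1, 3 without tissue replicate 1 and 2 without tissue replicate 2. Of the 17 calls, those of Tsr1 and Utp20 held without each library in turn, and they alone held without tissue replicate 2. Without tissue replicate 1 that of Npm1 held beside them, and without assembloid epithelium replicate 1 those of Npm1, Polr1b and Nob1 did, so that the other 12 were lost. Without assembloid epithelium replicate 2 the calls of Heatr1, Ppan and Npm3 were lost, and that of Ddx21 was lost without either organoid library.

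The comparison was repeated in cells with few or no UMIs of cycling genes. Such non-cycling cells numbered 2052 and 2268 in tissue, 8362 and 4194 in assembloid epithelium and 560 and 691 in organoids. Summed cycling genes still had 79.4 and 83.6 CPM in tissue, 180 and 132 CPM in assembloids and 247 and 264 CPM in organoids. The non-cycling cells also differed in their classes. Goblet-gated cells among them numbered 519 and 565 in tissue, 211 and 251 in assembloids and 9 and 6 in organoids. Colonocyte-gated ones numbered 480 and 500, 738 and 634, and 7 and 2 in the same order. The part of the remaining cycling genes and of these classes was not tested. In non-cycling cells the 38 genes took 0.140% and 0.139% of UMIs in tissue, 0.198% and 0.198% in assembloids and 0.530% and 0.439% in organoids. This was the same order as over all cells and without overlap. Between assembloids and tissue the order rested on the nucleolar proteins, summed at 1355 and 1361 CPM against 679 and 619 CPM in tissue. Each of the other roles was lower in assembloids when summed, such as small-subunit genes at 154 and 144 CPM against 202 and 200 CPM. Organoids over tissue gave 34 called higher, against 18.6% of all genes, with a median log2 fold change of 1.52. Organoids over assembloids gave 33 called higher, against 18.9% of all genes, with a median of 1.28. Not called higher over tissue were Utp20 (-0.30 ± 0.19), Tsr1 (0.11 ± 0.20), Odc1 (0.41 ± 0.20) and Rrp12 (0.67 ± 0.25, log2 and SE).

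In non-cycling assembloid cells against tissue, 12 genes were called higher (25.9% of all genes) and 5 lower (23.5% of all genes). The lower ones were Utp20 (-1.51 ± 0.19), Tsr1 (-1.32 ± 0.20), Polr1b (-1.09 ± 0.24), Rrp12 (-0.91 ± 0.25) and Bop1 (-0.55 ± 0.19, log2 and SE). With library totals in place of TMM, 3 were called higher (16.4% of all genes) and 10 lower (39.3%), with a median of all genes of -0.499, and the 38 genes lay 0.30 above the median of all genes in either scaling. The count of calls fell to 8 without assembloid epithelium replicate 1, to 4 without tissue replicate 1 and to 5 without tissue replicate 2.

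The next gate took Lgr5-gated cells, which are non-cycling cells with at least 1 UMI of the crypt-base receptor gene Lgr5. Cells that passed a gate for goblet, colonocyte or hormone-secreting (enteroendocrine) markers were left out of it by definition. It left 112 and 82 cells in tissue, 195 and 208 in assembloids and 344 and 456 in organoids. These were most of the 560 and 691 non-cycling organoid cells. They were few of the 2052 and 2268 in tissue and of the 8362 and 4194 in assembloids, so the gate was unlike in its selectivity. Other genes of crypt-base stem cells were low in the assembloid cells of this gate, with Smoc2 at 5.31 and 4.10 CPM against 147 and 127 CPM in tissue and 109 and 52.6 CPM in organoids, so the class is named by its gate alone. The goblet gene Muc2 had 1133 and 2981 CPM in the tissue cells of this gate. In these cells the 38 genes took 0.245% and 0.232% of UMIs in tissue, 0.321% and 0.304% in assembloids and 0.552% and 0.450% in organoids. Here too the nucleolar proteins carried assembloids above tissue, summed at 2195 and 2004 CPM against 1215 and 1092 CPM. The summed polymerase I, snoRNP, small-subunit and large-subunit genes were lower in assembloids. Small-subunit genes had 273 and 254 CPM there against 348 and 339 CPM in tissue. Myc and the polyamine genes overlapped. Organoids over tissue gave 23 called higher (12.5% of all genes) with a median log2 fold change of 0.99, against 2.13 over all cells. Organoids over assembloids gave 15 (9.13%) with a median of 0.74, against 1.74 over all cells. Assembloids over tissue gave 6 called higher (15.7%) and 1 lower (16.1%), which was Utp20 at -1.15 ± 0.32 (log2, SE, edgeR adjusted p = 0.013), with a median of 0.24. With library totals in these cells, organoids over tissue gave 14 called higher (8.56% of all genes) and organoids over assembloids 25 (17.4%), while assembloids over tissue gave 2 higher (8.19%) and 6 lower (29.0%).

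**Figure D3:**
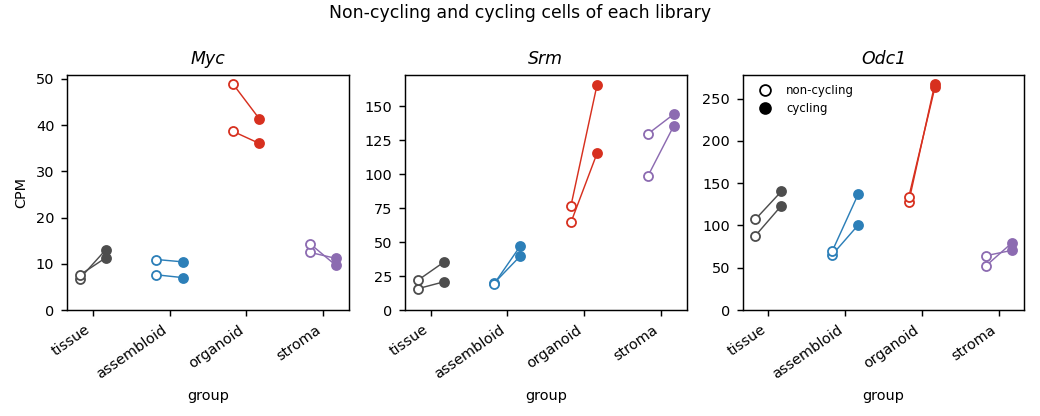
CPM of Myc, Srm and Odc1 in non-cycling cells (open points) and cycling cells (filled points) of each of the 8 libraries. Myc in organoids is 36.0 to 48.8 CPM in either state, while Srm and Odc1 in organoids are higher in cycling cells.

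Myc itself (chr15:61985391-61990374) had 8.17 and 8.35 CPM in tissue, 7.01 and 10.8 CPM in assembloid epithelium, 36.4 and 42.9 CPM in organoids and 12.02 and 12.9 CPM in stroma. In non-cycling cells it had 6.81 and 7.57 CPM in tissue, 7.61 and 10.9 CPM in assembloids and 38.6 and 48.8 CPM in organoids. Organoids stood apart from the other epithelial groups in either state, with a log2 fold change over tissue of 2.49 ± 0.21 in all cells and of 2.58 ± 0.22 (SE) in non-cycling cells. In assembloids over tissue the log2 fold change was 0.47 ± 0.20 in all cells, where the libraries overlapped and it was not called (edgeR adjusted p = 0.083), and 0.87 ± 0.21 in non-cycling cells, where it was called (edgeR adjusted p = 0.0078). The highest tissue library and the lowest assembloid library nearly touched there, and with library totals in place of TMM the value was 0.37 ± 0.26 (SE) and was not called (edgeR adjusted p = 0.239).

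Of the polyamine genes, Srm, spermidine synthase, had 17.1 and 24.2 CPM in tissue, 29.5 and 27.8 CPM in assembloid epithelium, 153 and 104 CPM in organoids and 138 and 113 CPM in stroma. Odc1, ornithine decarboxylase, the rate-limiting enzyme of polyamine synthesis, had 94.1 and 111 CPM in tissue, 82.9 and 91.0 CPM in assembloid epithelium, 250 and 238 CPM in organoids and 66.4 and 61.2 CPM in stroma. Srm was thus high in organoids and stroma, and Odc1 in organoids but lowest in stroma. The log2 fold change of Odc1 in organoids over tissue was 1.49 ± 0.24 in all cells and 0.41 ± 0.20 in non-cycling cells (SE). For Srm it was 2.91 ± 0.34 and 1.92 ± 0.25.

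Cycling cells were set against non-cycling cells of the same library, with the library as a block, to ask how far the genes follow the cell cycle in either compartment. No member was among the gate genes. The 38 genes took 0.271% and 0.278% of UMIs in cycling tissue cells, 0.360% and 0.394% in cycling assembloid cells, 0.914% and 0.703% in cycling organoid cells and 0.389% and 0.381% in cycling stromal cells, above the non-cycling value of the same library in all 8. In stroma the non-cycling values were 0.337% and 0.310%. Summed markers of colonocytes and of goblet cells were lower in cycling than in non-cycling cells of all 6 epithelial libraries, with the summed colonocyte list at 1454 and 1885 CPM in cycling against 8513 and 9089 CPM in non-cycling tissue cells and the summed goblet list at 9033 and 17530 CPM against 23149 and 24885 CPM. The shares in Lgr5-gated cells, given above, lay between those of all non-cycling and of cycling cells in each of the 6 libraries. They were close to the cycling ones in tissue and to the non-cycling ones in organoids. In organoids this gate held most of the non-cycling cells, so that nearness was largely set by the gate. The part of the colonocyte and goblet markers in the cycling effect was not tested. In the epithelium 36 genes were called higher in cycling cells, against 15.7% of all genes, with a median log2 fold change of 0.69 against -0.02 for all genes. In stroma 5 were called higher (3.96% of all genes) and 1 lower (5.63%), with a median of 0.08 against -0.23 for all genes. The stromal effect rests on 2 libraries and the epithelial one on 6, so the counts of calls cannot be compared between compartments. With library totals the stromal count was 8 higher, against 6.17% of all genes.

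Nolc1 had the largest epithelial effect, 1.20 ± 0.08 (log2, SE, edgeR adjusted p = 4.5e-06). Its level went from 20.4 and 25.8 CPM in non-cycling to 58.2 and 66.4 CPM in cycling tissue cells, from 21.2 and 16.7 to 51.4 and 54.3 CPM in assembloids and from 117 and 91.2 to 236 and 184 CPM in organoids. Cycling cells were higher in each of the 6 libraries. Myc had an epithelial effect of 0.02 ± 0.14 and Tsr1 one of 0.24 ± 0.12, and these were the members not called. Myc was higher in cycling than in non-cycling tissue cells, at 13.1 and 11.3 CPM against 6.81 and 7.57 CPM, but lower in both organoid libraries, at 36.0 and 41.4 CPM against 38.6 and 48.8 CPM.

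The stromal genes called higher in cycling cells were Dkc1, Noc4l, Nop56, Nhp2 and Nolc1, 4 of them snoRNP genes. Dkc1 had the largest effect, 0.80 ± 0.15 (log2, SE, edgeR adjusted p = 0.0066), going from 29.9 and 26.7 CPM in non-cycling to 55.9 and 59.1 CPM in cycling stromal cells. Rrs1 was called lower in cycling stroma, at 78.5 and 78.6 CPM against 99.3 and 108 CPM (-0.63 ± 0.17, edgeR adjusted p = 0.047), and higher in cycling epithelium (0.53 ± 0.11, edgeR adjusted p = 0.0036). Without either stromal library 0 of the stromal genes were called in edgeR, while 7 (without replicate 1) and 4 (without replicate 2) had an unadjusted p under 0.05, and DESeq2 with both libraries called 10. The call of Rrs1 in stroma was also lost without some single epithelial libraries.

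**Figure D4:**
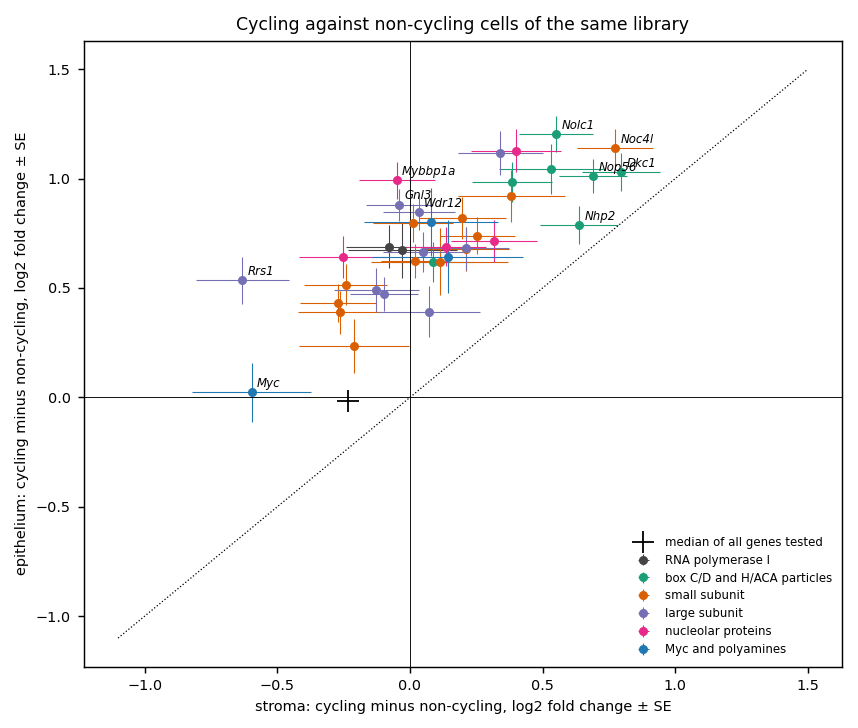
Log2 fold change of cycling over non-cycling cells in stroma (x axis) against that in epithelium (y axis) for the 38 genes, with bars of 1 SE. The dotted line marks equal effects and the cross the median of all genes. All 38 points lie above the line.

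The difference between the 2 cycling effects was tested directly. The epithelial effect was a common value over tissue, assembloid and organoid libraries, while stroma came from assembloids alone. The difference is therefore not one within assembloids. Epithelium exceeded stroma in all 38 genes, by a median log2 difference of 0.61 against 0.21 for all genes, and 4 genes were called, against 0.702% of all genes. These were Rrs1 (1.17 ± 0.21), Mybbp1a (1.04 ± 0.17), Gnl3 (0.92 ± 0.15) and Wdr12 (0.81 ± 0.16, log2 and SE). Mybbp1a went from 26.8 and 22.6 to 58.6 and 58.6 CPM in tissue and from 104 and 109 to 174 and 168 CPM in organoids. In assembloid epithelium it went from 34.4 and 26.2 to 80.7 and 75.3 CPM, but in stroma from 47.1 and 45.3 to 49.2 and 55.7 CPM. Gnl3 went from 33.0 and 30.9 to 71.3 and 81.3 CPM in tissue and from 27.8 and 27.8 to 53.4 and 61.3 CPM in assembloid epithelium. In stroma it went from 84.3 and 82.4 to 90.5 and 99.9 CPM. For Mybbp1a and Gnl3 the states of stromal cells thus lay closer together than those of tissue cells.

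These 4 calls were not firm. Without assembloid epithelium replicate 2, either stromal library, organoid replicate 2 or tissue replicate 1, edgeR called 0, with 9 to 21 genes at an unadjusted p under 0.05, and DESeq2 called 19 with all libraries. Relative to the median of all genes the 38 genes lay 0.30 to 0.50 above it in the 19 settings tried. By the file headers, stroma and epithelium were processed with different versions of Cell Ranger, 6.0.1 and 7.1.0, which cannot be told apart from the compartment.

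To follow the genes along differentiation, cells of marker-gated classes were summed in the tissue and assembloid libraries, all of them non-cycling. Colonocyte-gated cells had at least 100 UMIs per 10000 from the summed genes Krt20, Slc26a3, Car1, Car4, Aqp8, Guca2a, Lypd8 and Emp1. Goblet-gated cells had at least 300 from genes such as Muc2 and Tff3. The 38 genes took 0.0617% and 0.0678% of UMIs in colonocyte-gated tissue cells, 0.144% and 0.155% in goblet-gated ones and 0.245% and 0.232% in Lgr5-gated ones. In assembloids the shares were 0.0733% and 0.0948%, 0.145% and 0.140%, and 0.321% and 0.304%. In every library the order was Lgr5-gated, goblet-gated, colonocyte-gated. The classes differed in depth, with median UMIs of 8600 to 18586 per colonocyte-gated cell, 10356 to 19935 per goblet-gated cell and 7168 to 20712 per Lgr5-gated cell, and its part was not tested.

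**Figure D5:**
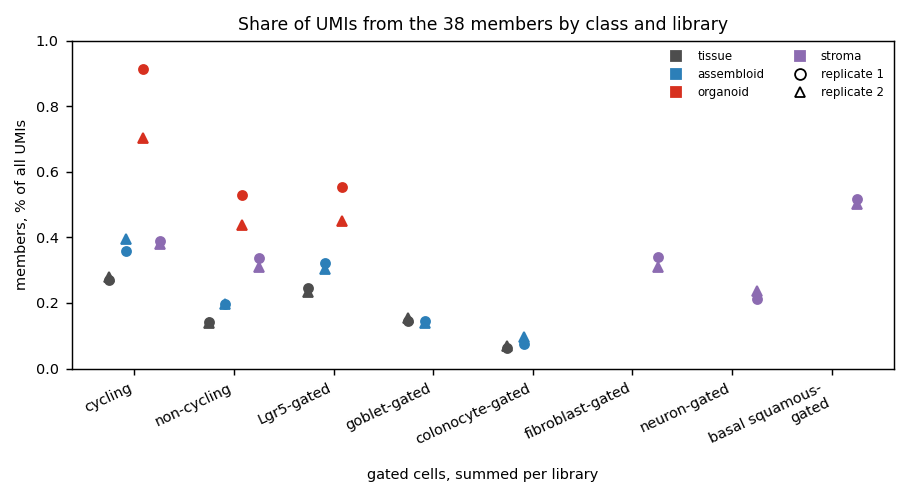
Percent of UMIs taken by the 38 genes (y axis) in each gated cell class of each library, by group. Within epithelium, the share falls from cycling and Lgr5-gated cells to goblet-gated and colonocyte-gated cells, and in stroma basal-squamous-gated cells lie at 0.517% and 0.502%, above fibroblast-gated and neuron-gated cells.

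Lgr5-gated over colonocyte-gated cells gave 36 genes called higher, against 23.9% of all genes, with a median log2 fold change of 1.51. Rrp1b had the largest, 3.17 ± 0.33 (log2, SE, edgeR adjusted p = 3.1e-05). It had 1.48 and 1.19 CPM in colonocyte-gated and 12.6 and 20.6 CPM in Lgr5-gated tissue cells. In assembloids it had 1.20 and 0.99 CPM against 11.5 and 17.6 CPM. The colonocyte-gated values rest on few UMIs of Rrp1b, since these sums held 6685674 to 11143925 UMIs of all genes. Myc went the same way, from 1.27 and 1.91 CPM in colonocyte-gated to 12.01 and 18.6 CPM in Lgr5-gated tissue cells (2.36 ± 0.28, edgeR adjusted p = 6.5e-05 over both groups). Odc1, at 0.28 ± 0.16, and Tsr1, at 0.52 ± 0.28, were not called. Odc1 was present in colonocyte-gated tissue cells at 64.1 and 79.8 CPM, near its 84.7 and 112 CPM in Lgr5-gated ones. In assembloids the classes lay further apart, at 36.3 and 47.3 CPM against 87.6 and 95.4 CPM.

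Goblet-gated over colonocyte-gated cells gave 32 genes called higher, against 20.8% of all genes, with a median log2 fold change of 0.94. The largest was that of Srm, 2.72 ± 0.22 (log2, SE, edgeR adjusted p = 5.5e-06). Srm had 27.6 and 44.3 CPM in goblet-gated against 3.28 and 3.22 CPM in colonocyte-gated tissue cells. In assembloids it had 41.1 and 39.4 CPM against 6.13 and 8.26 CPM. In all 4 libraries Srm was higher in goblet-gated than in Lgr5-gated cells, the latter at 15.8 and 32.0 CPM in tissue and 27.9 and 29.5 CPM in assembloids. Utp20 alone had a negative value, -0.27 ± 0.21, which was not called. With each cell thinned to 2000 UMIs, 19 of the 33 members still tested were called. In the 15 settings tried, thinning among them, the median of the members tested lay 0.79 to 1.16 (log2) above that of all genes.

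Within each class, assembloids were then set against tissue. The gated cells themselves differed in markers, with Muc2 at 5058 and 5264 CPM in goblet-gated assembloid cells against 22335 and 19644 CPM in tissue. The summed goblet list of 8 genes was 62731 and 62372 CPM against 76651 and 72468 CPM there, and the summed colonocyte list was 18096 and 20286 CPM against 24896 and 23453 CPM in colonocyte-gated cells. Single colonocyte markers went both ways over all kept cells. Car1 (1240 and 1941 CPM against 478 and 727 CPM in tissue) and Emp1 were higher in assembloid epithelium, and Krt20 overlapped. Guca2a (80.2 and 134 CPM against 1632 and 1947 CPM), Slc26a3, Car4, Aqp8 and Lypd8 were lower. The part of these differences in the values below was not tested. In goblet-gated cells of assembloids over tissue, 5 genes were called higher (26.4% of all genes) and 10 lower (24.1%). In colonocyte-gated cells, 16 were called higher (27.6%) and 2 lower (26.2%), the lower ones being Tsr1 (-1.95 ± 0.24) and Utp20 (-1.88 ± 0.21, log2 and SE), which were lower in goblet-gated cells too (-0.72 ± 0.22 and -1.95 ± 0.26). The directions depended on the scaling, since with library totals 1 was called higher (12.9% of all genes) and 20 lower (46.8%) in goblet-gated cells, and 7 higher (16.2%) and 8 lower (47.0%) in colonocyte-gated cells, with medians of all genes of -0.604 and -0.557. Relative to the median of all genes the 38 genes lay 0.02 (TMM) and 0.01 (library totals) higher in goblet-gated cells and 0.49 higher in colonocyte-gated cells in either scaling. Tsr1 and Utp20 were called lower in both classes with library totals too. The difference between the groups in the goblet over colonocyte effect was then tested itself. It was called positive for 1 gene (11.2% of all genes) and negative for 9 (7.62% of all genes).

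The positive one was Tsr1, 1.27 ± 0.31 (log2, SE, edgeR adjusted p = 0.011). Among the negative ones were Gnl3 (-1.21 ± 0.23), Dkc1 (-1.15 ± 0.32), Nhp2 (-0.96 ± 0.18), Ddx21 (-0.96 ± 0.22) and Npm3 (-0.95 ± 0.20), with Nop56, Mybbp1a and Fbl between -0.85 and -0.62. Dkc1 had 22.8 and 22.2 CPM in goblet-gated tissue cells but 8.04 and 5.65 CPM in goblet-gated assembloid cells, while colonocyte-gated cells of either group had 3.86 to 6.45 CPM. Gnl3 had 39.8 and 43.1 CPM against 26.4 and 27.4 CPM in goblet-gated cells and 4.97 and 6.45 CPM against 9.27 and 8.97 CPM in colonocyte-gated ones, tissue first. Polr1a had the largest value, -3.06 ± 0.43, but its colonocyte-gated assembloid libraries lay far apart, at 3.44 and 12.7 CPM. The count of 10 calls went to 6 without assembloid epithelium replicate 2, 6 without tissue replicate 1 and 5 without tissue replicate 2, and to 1 of the 32 members still tested with each cell thinned to 2000 UMIs.

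Between the libraries of assembloids, stroma over epithelium gave 19 of the 38 genes called higher, against 33.7% of all genes, and 1 called lower, against 38.3% of all genes. The median log2 fold change was 0.44 against -0.11 for all genes. The versions of Cell Ranger differed as given above, and whether reads in introns were counted is not given in the sources used here, which cannot be told apart from the compartment. Rrs1 had the largest value, 2.40 ± 0.14 (log2, SE, edgeR adjusted p = 0.00031), followed by Ppan (2.05 ± 0.19), Nop16 (2.00 ± 0.14), Srm (1.96 ± 0.18) and Rcl1 (1.69 ± 0.25). Of these, Rrs1, Ppan and Nop16 act on the large subunit, of whose 9 genes 7 were called higher. The gene called lower was Odc1 (-0.62 ± 0.13, edgeR adjusted p = 0.011), which was not called with library totals, and the nucleolar proteins Npm1 (0.17 ± 0.18) and Ncl (-0.16 ± 0.28) were not called. The count of 20 was 8 without stroma replicate 1 and 12 without stroma replicate 2.

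Within stroma, fibroblast-gated cells, 4728 and 6487 in number, had 0.339% and 0.310% of UMIs in the 38 genes. Neuron-gated cells, 84 and 113 in number, had 0.214% and 0.237%. Basal-squamous-gated cells, which carry Krt5 and Krt14 and were left out of the stromal sums, had 0.517% (317 cells) and 0.502% (16 cells), with Myc at 39.3 and 33.8 CPM against 12.5 and 14.1 CPM in fibroblast-gated cells. These classes were not tested against each other.

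Lists of other genes of the same processes, drawn up by function with earlier results known, were read in the same fits. In organoids over tissue, 32 of 35 other small-subunit factors were called higher (median log2 fold change 1.46), as were 33 of 36 other large-subunit factors (1.70), 10 of 10 other snoRNP genes (1.52), 8 of 13 other genes of polymerase I (0.94) and 17 of 17 genes of nucleotide synthesis (1.61). In assembloids over tissue the counts were 5 of 35 (0.01), 9 of 36 with 2 lower (0.41), 4 of 10 with 1 lower (0.14), 2 of 13 with 1 lower (-0.10) and 4 of 17 (0.18). Among cycling over non-cycling epithelial cells they were 27 of 35 (0.55), 30 of 36 (0.60), 8 of 10 (0.62), 6 of 13 (0.27) and 16 of 17 (0.69). Of 11 other polyamine genes, 7 were called higher and 3 lower in organoids over tissue (median 1.02), 5 higher and 1 lower in assembloids over tissue (0.23) and 5 higher and 3 lower in cycling epithelium (0.02). The shares of all genes in these 3 comparisons were 24.3%, 26.7% and 15.7% called higher and 22.9%, 23.3% and 14.2% called lower.

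Examples are Ruvbl1, a chaperone ATPase of snoRNP assembly, with 15.9 and 16.5 CPM in tissue, 15.0 and 13.7 CPM in assembloid epithelium and 92.5 and 69.5 CPM in organoids, and Lyar, a nucleolar growth regulator, with 32.8 and 32.8 CPM, 80.7 and 74.9 CPM and 234 and 162 CPM in the same order. Of 16 Myc targets outside the ribosome, 15 were called higher in organoids over tissue (median 1.68) and 6 in assembloids over tissue with 1 lower (0.67). Shmt2, a mitochondrial enzyme of serine and folate metabolism, had 7.003 and 6.86 CPM in tissue, 46.9 and 46.0 CPM in assembloid epithelium and 73.5 and 91.8 CPM in organoids, so that both cultures lay well above tissue.

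Of 12 genes of Myc partners and rivals, 1 was called higher, 3 lower and 8 neither in organoids over tissue (median 0.17), and 2 were called higher, 5 lower and 5 neither in assembloids over tissue (-0.27), against the shares of all genes given above. Mxd1, which competes with Myc for Max in differentiated cells, had 90.8 and 114 CPM in tissue, 153 and 116 CPM in assembloid epithelium and 4.54 and 6.86 CPM in organoids (-3.96 ± 0.29 in organoids over tissue, log2 and SE). Mycn, a relative of Myc, had 1.72 and 1.65 CPM in tissue, 0.126 and 0.140 CPM in assembloid epithelium and 0.0853 and 0.129 CPM in organoids. Mxd1 was low only in organoids among the epithelial groups, and Mycn was low in both cultures.

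The ribosomal proteins themselves followed another pattern. They took 16.9% and 15.0% of UMIs in tissue, 30.1% and 26.2% in assembloid epithelium, 27.2% and 24.8% in organoids and 23.3% and 24.5% in stroma, so that both cultures lay above tissue and overlapped with each other. Of 77 ribosomal protein genes tested, 64 were called higher in assembloids over tissue (median log2 fold change 1.15), against 26.7% of all genes, and 40 in organoids over tissue (0.95), against 24.3% of all genes. In organoids over assembloids their fold changes ran from -0.66 to 0.36 with a median of -0.22, against 1.74 for the 38 genes. In cycling over non-cycling epithelium their median was -0.06 against 0.69. Many ribosomal protein genes have near-identical processed copies, so single members are uncertain.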

How the data were processed

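Droplet 3′ RNA libraries were made from dissociated cells of 4 groups with 2 biological replicates each. The values deposited by the authors are raw UMI counts for each gene in each barcode, made with Cell Ranger (6.0.1 for stroma and 7.1.0 for epithelium, per the file headers), whose own cell calling had been applied and no normalization. The labels name Cell Ranger 6, which differs from the headers of the epithelial files. The genome build and intron counting are not given in the sources used here.

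Barcodes were kept at 500 or more genes and 10% or fewer mitochondrial UMIs. Fibroblast- and immune-gated cells were removed from epithelial libraries and epithelial- and basal-squamous-gated cells from stroma. Doublets were neither called nor removed. Classes were gated among cells with at least 2000 UMIs. Cycling cells had at least 10 UMIs per 10000 from at least 2 of a list of cycling genes and non-cycling cells under 5 per 10000. Lgr5-gated cells had at least 1 UMI of Lgr5 and passed none of the goblet, colonocyte and enteroendocrine gates. Colonocyte-gated cells excluded those that passed the goblet gate, and both classes excluded those that passed the enteroendocrine gate. Gate limits were chosen after the distributions were seen.

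UMIs were summed per library or per library and class and tested in R 4.3.3 with edgeR 4.0.16 (quasi-likelihood fit and test, filterByExpr and TMM), with Benjamini-Hochberg adjustment over all genes tested and calls at an adjusted p under 0.05. The 3 epithelial groups shared 1 fit, and class and cycling fits used the library as a block. SE is the absolute log2 fold change over the square root of F. Replicates of a group differed by more than counting error, with a chi-square per gene of 24.1 (tissue) to 401 (organoids), so no pair counted as 1 library.

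The members and all gene lists were chosen with earlier results of these data known. Named members are Myc, Odc1 and Srm, the 2 highest and the lowest of each role in organoids over tissue, those whose sign in a culture against tissue differed from most and those with the largest or smallest cycling effect, 26 in all. Other genes with values were named by the same ranking within their lists or after their values were seen. Alternatives were DESeq2 1.42.0, other scalings, other filters on cells and genes, gate limits 2 times as high, cells thinned to 2000 UMIs, a replicate block and each library left out. Fits within Lgr5-, goblet- or colonocyte-gated cells, the difference of the goblet effect between groups and library totals in place of TMM, also within these classes, were added after the data were seen. Promoter windows are from RefSeq on GRCm38.p6.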

Additional observations from a re-analysis of the deposited data

Results flagged for a closer look

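The cycling effect differed between epithelium and stroma by the test of the difference itself for Rrs1 (log2 difference 1.167), Mybbp1a (1.041), Gnl3 (0.919) and Wdr12 (0.813), each larger in epithelium. None of these calls held without each library in turn. The goblet over colonocyte effect differed between assembloids and tissue by the same kind of test. It was lower in assembloids for Polr1a (-3.056), Gnl3 (-1.214), Dkc1 (-1.147), Nhp2 (-0.962), Ddx21 (-0.956), Npm3 (-0.954), Nop56 (-0.851), Mybbp1a (-0.799) and Fbl (-0.623), and higher for Tsr1 (1.273). The last comparison was chosen after the data were seen, and most of its calls were lost with thinned cells, as given above. The colonocyte-gated assembloid libraries lay far apart for Polr1a. With 2 libraries per group no sample could be called far from the others of its group.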

How the results depend on the processing

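Numbers here are members called of 38, except where fewer tested are named. Of the alternative values of these counts, 184 were within 1.5 times of the main one and 33 were not. Lgr5-gated cells alone gave 7 in assembloids over tissue (17), 23 in organoids over tissue (36) and 15 in organoids over assembloids (36), with medians down to 0.99 and 0.74 for the organoid comparisons, and with library totals 8 in assembloids and 14 in organoids over tissue. DESeq2 gave 10 for the stromal cycling effect (6), 19 for its difference between compartments (4) and 5 for the goblet difference between groups (10). The compartment difference was also 9 at up to 5% mitochondrial UMIs, 2 with library totals, 1 with thinned cells, and 0 with cycling limits 2 times as high (4 at an unadjusted p under 0.05) or no filter on low counts (9). Thinned cells gave 19 of 33 tested for goblet over colonocyte (32) and 1 of 32 tested for the goblet difference. The cause was not tested.

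Leaving out 1 library at a time, with the lone library of a group assumed to vary like the others, gave 2 to 20 for assembloids over tissue and 4 to 20 in its non-cycling cells, 0 to 7 for the stromal cycling effect, 0 to 4 for the compartment difference, 8 to 21 for stroma over epithelium and 5 to 15 for the goblet difference. In the other 7 comparisons the counts stayed within 1.5 times. Signs changed as follows, with the member called in either fit, for those named by rule in the cultures over tissue and for those called in a difference of effects in that difference: Polr1a (-1.125) and Dkc1 (-1.231) in assembloids over tissue within goblet-gated cells, Ppan (0.177) in the same comparison within Lgr5-gated cells, Rrp12 (-0.125) in organoids over tissue within Lgr5-gated cells and Mybbp1a (0.032) for the goblet difference in thinned cells. With library totals within a class the sign also changed for members named by rule, in assembloids over tissue, for Odc1 (-0.571), Polr1a (-1.678), Nop56 (-0.509), Nolc1 (-0.854), Fbl (-0.896), Wdr12 (-1.118), Ncl (-0.057), Npm3 (-0.417) and Dkc1 (-1.792) in goblet-gated cells, Odc1 (-0.775) and Noc4l (-0.032) in colonocyte-gated cells and Polr1a (-0.996), Noc4l (-0.368) and Dkc1 (-1.238) in Lgr5-gated cells, and in organoids over tissue for Polr1a (-0.064), Heatr1 (-0.097) and Rrp12 (-0.297) in Lgr5-gated cells. Among the other members called in either fit it changed, in assembloids over tissue, for Ddx21 (-0.114), Gnl3 (-0.622), Mybbp1a (-0.204), Nhp2 (-0.201), Nob1 (-0.032), Nop58 (-0.861), Pes1 (-0.003), Rrp9 (-0.914) and Wdr75 (-0.287) in goblet-gated cells and Utp4 (-0.836) and Wdr75 (-0.096) in colonocyte-gated cells. Over all 38, called or not, the sign in assembloids over tissue changed with library totals for 21 in goblet-gated, 12 in colonocyte-gated and 15 in Lgr5-gated cells, and with TMM for 9, 4 and 6.

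Deviations of same-numbered epithelial libraries from their group means correlated at -0.0239 to 0.0538. With 2 libraries per group, these values cannot tell whether same-numbered libraries shared a mouse or a run. With a replicate block, 14 were called higher and 3 lower in assembloids over tissue, 36 higher in organoids over tissue and 37 in organoids over assembloids. In non-cycling cells it gave 15, 33 and 33, and 19 for stroma over epithelium. Rare members are limited by depth, with as few as 259 UMIs of Rrp1b in a whole tissue library. Sums of gated classes hold fewer. The goblet-gated sum of assembloid epithelium replicate 1 had 2238756 UMIs of all genes, with Polr1a at 3.57 CPM and Polr1b at 1.34 CPM.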
